A study of Mus musculus with 8 samples.

Results

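Smooth muscle cells contract with a specialised set of actin, myosin and actin-binding proteins, and this account follows 9 genes of that set, Acta2, Acta1, Actg2, Tagln, Myl9, Cnn1, Cnn2, Tpm1 and Tpm2, in cultured kidney epithelial cells. The genes were taken by symbol from the 18631 genes of the deposited files, and all 9 were found. They were chosen by the FPKM difference between the cell lines in DMSO, where Acta2, Tagln and Myl9 were among the genes with the largest increases. The values in DMSO are therefore a description with no test.

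The study concerned autosomal dominant polycystic kidney disease, in which PKD1, the gene of polycystin-1, is most often mutated. Poly(A) RNA was sequenced from 2 mouse kidney epithelial cell lines, the line null(PN), labelled Pkd1-/- Null, and the line pkd1(PH), labelled Pkd1+/- Heterozygous. Each line was given THZ1, a covalent inhibitor of the transcription kinase CDK7, at 50 nM for 6 h, or DMSO, its solvent, with 2 libraries in each of the 4 groups. All groups shared a DMEM-F12 medium with serum, IFNγ, T3 and an insulin supplement. Both genotypes carry a Pkd1 mutation, no wild-type line is among the samples, and each genotype is 1 line, so loss of Pkd1 and any other difference between the lines cannot be told apart. The labels do not say that replicates were separate cultures, so every p-value reflects the scatter between these libraries, which may be technical. In bulk RNA, a change in the number of cells that express a gene and a change in RNA per cell cannot be told apart.

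An estimated 17.3 to 18.3 M (mega) fragments lay behind each library, and 14007 to 15439 genes were above 0. Values are FPKM, fragments per kilobase of transcript and M mapped fragments, and differences are on the log2(FPKM + 1) scale with limma's standard error (SE). Pkd1 had 1.22 and 1.21 FPKM in null cells under THZ1 and 1.69 and 1.32 in null cells under DMSO, against 3.71 and 4.20 in heterozygous cells under THZ1 and 4.58 and 5.30 under DMSO. The null libraries lay below all heterozygous libraries, with reads still present. The labels do not give the deleted part of the gene, and reads outside a deletion still count.

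Alpha smooth muscle actin (Acta2), skeletal alpha actin (Acta1) and gamma smooth muscle actin (Actg2) form thin filaments, and the light chain Myl9 is the part of smooth muscle myosin that is phosphorylated when the cell contracts. Transgelin (Tagln) and the calponins Cnn1 and Cnn2 bind actin filaments, and the tropomyosins Tpm1 and Tpm2 lie along them. Many such genes are driven by serum response factor (SRF), which binds a DNA element called the CArG box together with myocardin or the actin-sensing MRTF coactivators, and by TGF-beta signalling. In kidney, Acta2 is best known as a marker of vascular smooth muscle and of the myofibroblasts of scarring tissue, and epithelial cells in culture can also express it.

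Promoter sequences are given for Acta2, Acta1, Myl9 and Cnn2, as the genes that were higher in null cells and whose window holds an exact CArG box or one with 1 G or C in its core. They are the 250 bases before an annotated start, 5′ to 3′ on the gene's strand, from RefSeq with build GRCm38.p6. For Acta2 and Myl9 this start lies inside the gene span given below, so part of the window is within that span. Capitals mark each exact CArG box and each box with 1 G or C in its core.
Acta2 (chr19:34255374-34255623, minus strand): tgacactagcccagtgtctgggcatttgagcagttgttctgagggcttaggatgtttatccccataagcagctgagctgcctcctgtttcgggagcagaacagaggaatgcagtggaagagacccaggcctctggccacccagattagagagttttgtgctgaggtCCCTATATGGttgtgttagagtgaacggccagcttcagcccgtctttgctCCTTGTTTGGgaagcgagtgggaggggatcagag
Acta1 (chr8:123894776-123895025, minus strand): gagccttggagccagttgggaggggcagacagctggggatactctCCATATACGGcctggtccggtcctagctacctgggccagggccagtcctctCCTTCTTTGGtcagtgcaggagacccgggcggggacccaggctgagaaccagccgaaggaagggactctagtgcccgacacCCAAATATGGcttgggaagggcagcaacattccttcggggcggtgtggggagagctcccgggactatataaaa
Myl9 (chr2:156775214-156775463, plus strand): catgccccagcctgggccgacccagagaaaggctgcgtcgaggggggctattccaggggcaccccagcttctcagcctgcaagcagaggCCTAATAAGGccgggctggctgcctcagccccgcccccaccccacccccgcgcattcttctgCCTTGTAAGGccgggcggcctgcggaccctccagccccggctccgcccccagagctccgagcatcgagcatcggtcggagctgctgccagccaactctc
Cnn2 (chr10:79988350-79988599, plus strand): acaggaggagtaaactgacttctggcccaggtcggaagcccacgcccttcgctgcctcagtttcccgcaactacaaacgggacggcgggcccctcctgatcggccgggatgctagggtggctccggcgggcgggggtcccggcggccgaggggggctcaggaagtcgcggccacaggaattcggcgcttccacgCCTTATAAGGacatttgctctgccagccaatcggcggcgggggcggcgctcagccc

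An exact CArG box, that is CC, a core of 6 bases that are A or T, and GG, was found in 3 of the 7 member promoters in the table. Its first base lay 73 bases before that annotated start for Acta1, 161 for Myl9 and 56 for Cnn2. Over all 32817 promoters searched the same way, on both strands and over the whole table window with 50 bases after the start, 1.63% held one. The Acta2 window holds no exact box, but 2 boxes with 1 G or C in the core, 84 and 34 bases before the start. This looser form was searched after the Acta2 sequence had been read. It was also found in Acta1 and Myl9, and 8.50% of all promoters held it. With 1 mismatch allowed in CC or GG, Tpm1 was added to the 3 exact matches, and 13.9% of all promoters had such a match.

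The element CATTCC, to which TEAD factors bind, was found in the windows of Acta1, Acta2 and Tpm1 and in 14.7% of all promoters. TATAAA was found in that of Acta1, 7 bases before the start, and in 13.6% of all promoters. No exact CArG box was found in the windows of Acta2, Cnn1, Tpm1 and Tpm2, which says only that these letters are not there. The Tpm1 window lies wholly inside the gene span given below, and those of Acta2, Cnn1 and Tpm2 lie partly inside. The bases just before these spans were therefore not fully searched. Tagln and Actg2 are named without a sequence. A match is a run of letters, and binding was not measured.

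Acta2 (gene ID 11475, chromosome 19, 34240336 to 34255585 in GRCm38) had 133 and 128 FPKM in null cells under THZ1 and 110 and 107 in null cells under DMSO. In heterozygous cells it had 6.73 and 7.48 FPKM under THZ1 and 7.74 and 7.20 under DMSO. The lines did not overlap under either treatment. Within null cells both THZ1 libraries lay above both DMSO libraries, and within heterozygous cells the treatments overlapped.

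Acta1 (chromosome 8, 123891758 to 123894775) was well below Acta2 in both lines. In null cells it had 20.2 and 19.4 FPKM under THZ1 and 18.8 and 17.9 under DMSO. In heterozygous cells it had 1.52 and 1.87 FPKM under THZ1 and 1.46 and 1.51 under DMSO. It showed the same order of lines as Acta2. Expressed as a share of Acta2, Acta1 was 15.2 and 15.1% in null cells under THZ1 and 17.1 and 16.7% under DMSO. In heterozygous cells it was 22.6 and 25.0% under THZ1 and 18.9 and 21.0% under DMSO.

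Actg2 (chromosome 6, 83512909 to 83536251) was near the detection limit. It had 1.15 and 1.32 FPKM in null cells under THZ1 and 1.00 and 0.83 under DMSO, against 0.25 and 0.04 in heterozygous cells under THZ1 and 0.08 in both libraries under DMSO. These values correspond to about 20 to 31 fragments per null library and 1 to 6 per heterozygous library. The lines did not overlap, but its mean of 0.594 FPKM was under the minimum of 1 FPKM for testing.

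Tagln (chromosome 9, 45929628 to 45936058) was the most abundant of the genes with a large gap between the lines. It had 142 and 134 FPKM in null cells under THZ1 and 119 and 122 under DMSO. In heterozygous cells it had 17.2 and 19.4 FPKM under THZ1 and 18.9 and 20.0 under DMSO. The null libraries were well above the heterozygous ones, and in null cells the THZ1 libraries lay above those in DMSO.

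Myl9 (chromosome 2, 156775408 to 156781657) followed the same course. It had 63.8 and 61.0 FPKM in null cells under THZ1 and 49.4 and 52.9 under DMSO. In heterozygous cells it had 3.62 and 4.70 FPKM under THZ1 and 3.60 and 4.37 under DMSO. The treatments overlapped in heterozygous cells and did not in null cells.

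The calponins went in different directions. Cnn1 (chromosome 9, 22099221 to 22109221), the form typical of differentiated smooth muscle, was low in both lines and lower in null cells, with 2.51 and 1.65 FPKM under THZ1 and 2.44 and 2.47 under DMSO, against 3.61 and 3.83 in heterozygous cells under THZ1 and 3.56 and 3.95 under DMSO. Cnn2 (chromosome 10, 79988600 to 79995400), which many non-muscle cells express, was abundant, with 410 and 396 FPKM in null cells under THZ1 and 459 and 452 under DMSO. In heterozygous cells Cnn2 had 193 and 208 FPKM under THZ1 and 211 and 229 under DMSO. Null cells were above heterozygous cells for Cnn2, and in both lines the THZ1 libraries were below those in DMSO.

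Tpm1 (chromosome 9, 67022590 to 67049672), whose alternative forms serve muscle and non-muscle cells alike, was the highest of the 9 in every group. It had 1300.4 and 1298 FPKM in null cells under THZ1 and 1301 and 1272 under DMSO, against 884 and 913 in heterozygous cells under THZ1 and 884 and 920 under DMSO. The lines did not overlap and the treatments did in both lines. Tpm2 (chromosome 4, 43513726 to 43523583) lay at 0.10 to 0.26 FPKM in all 8 libraries, about 4 to 10 fragments each, with the lines overlapping. It was not tested.

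**Figure D1:**
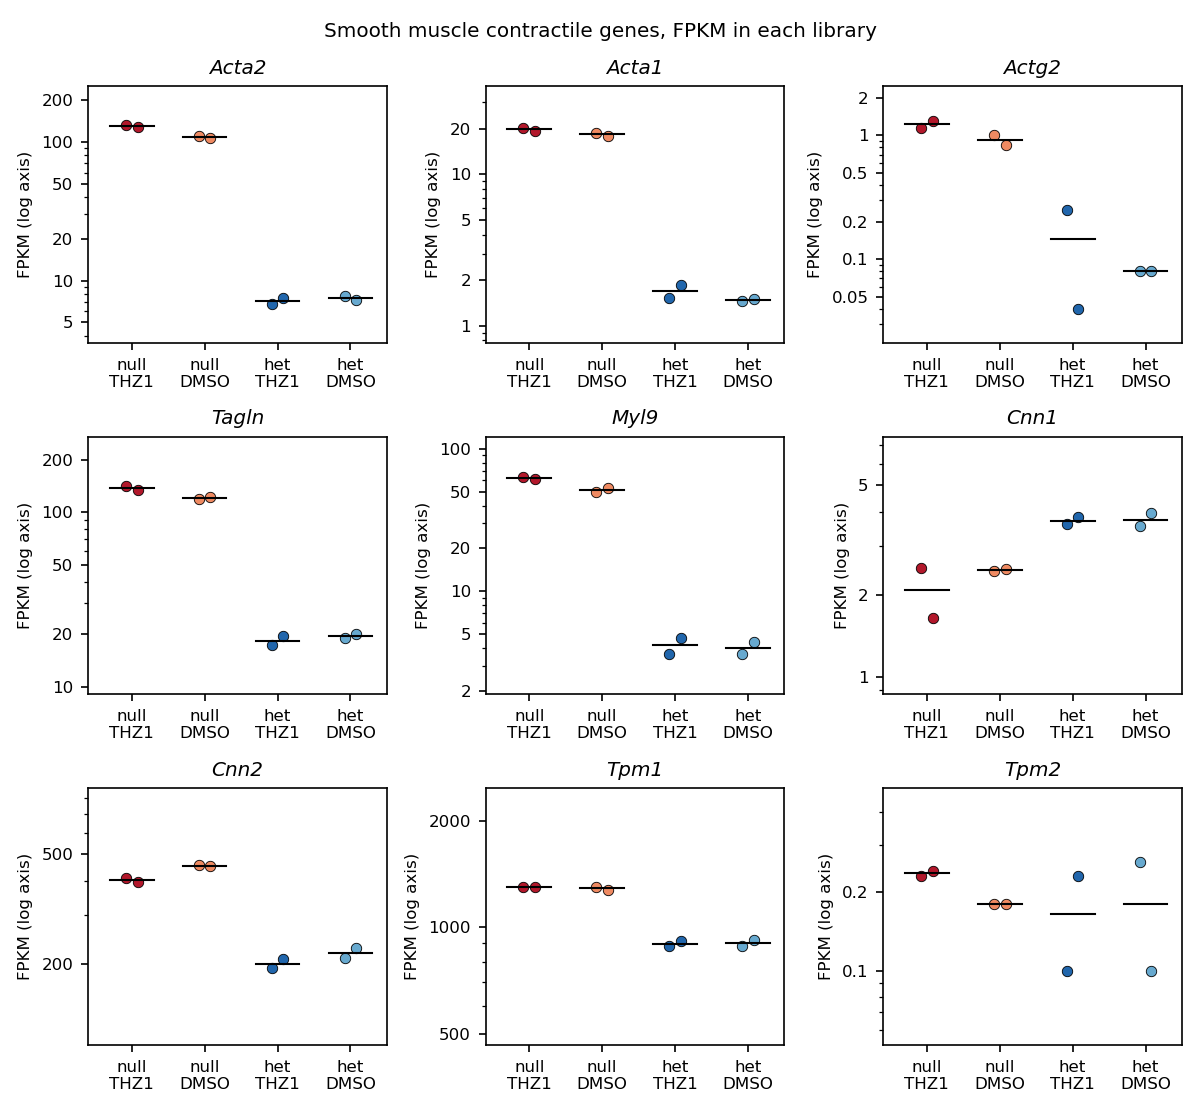
FPKM of each gene in each library, on a log axis with a different range in each panel. Points are the 2 libraries of a group, lines are their means, and het stands for the heterozygous line. The null libraries lie above the heterozygous ones for Acta2, Acta1, Actg2, Tagln, Myl9, Cnn2 and Tpm1 and below them for Cnn1, while for Tpm2 the lines overlap.

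FPKM is scaled by length, so levels can be ordered between genes. In null cells the order under both treatments was Tpm1, Cnn2, Tagln, Acta2, Myl9, Acta1, Cnn1, Actg2 and Tpm2, and no neighbours overlapped. In heterozygous cells Tpm1, Cnn2, Tagln and Acta2 again came first in that order without overlap. Myl9 and Cnn1 overlapped there under both treatments, and Cnn1 stood above Acta1. Tpm2 came before Actg2 at the low end, and these overlapped under THZ1.

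The lines were compared under THZ1, in 4 libraries that the choice of the genes had not used. These libraries come from the same 2 lines, so genes chosen for a gap in DMSO were likely to show one here too. The SE also draws on the DMSO libraries, since all 8 libraries share the fit. The p-values and ranks below are therefore no independent check of the gap. Acta2, Myl9, Acta1 and Tagln were higher in null cells by far more than the spread between libraries, Cnn2 and Tpm1 were higher by less, and Cnn1 was lower. Acta2 averaged 131 ± 3.40 FPKM in null cells and 7.11 ± 0.53 in heterozygous cells (SD, n = 2 each), a ratio of 18.4, and its log2 difference was 4.03 (SE 0.056, adjusted p = 3.72e-14). Myl9 averaged 62.4 ± 1.98 and 4.16 ± 0.764 FPKM in null and heterozygous cells, a ratio of 15.0 with a log2 difference of 3.63 (SE 0.094, adjusted p = 4.63e-12). For Acta1 the ratio of means was 11.7 and the log2 difference 2.95 (SE 0.078, adjusted p = 5.37e-12). For Tagln the ratio was 7.55 and the log2 difference 2.85 (SE 0.057, adjusted p = 7.44e-13).

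Cnn2 was 2.01 times as high in null as in heterozygous cells under THZ1, with a log2 difference of 1.00 (SE 0.049, adjusted p = 8.20e-10). Tpm1 was 1.45 times as high, with a log2 difference of 0.53 (SE 0.043, adjusted p = 9.48e-08). Cnn1 had a ratio of 0.559 and a log2 difference of -0.63 (SE 0.115, adjusted p = 0.00021). In all, 6 of the 7 tested genes were higher and 1 was lower, where 25.1% of the 10731 tested genes were higher and 58.1% lower, and 83.2% were called in either direction. Being called was thus common. The median of the 7 log2 differences was 2.85, beside a median of -0.28 over all tested genes. By size of log2 difference Acta2 ranked 7, Myl9 11, Acta1 24 and Tagln 26 among all tested genes, against 415 for Cnn2 and 1182 for Tpm1.

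In DMSO, the contrast on which the genes were chosen, the log2 differences between null and heterozygous cells were 3.69 for Acta2, 3.39 for Myl9, 2.96 for Acta1, 2.57 for Tagln, 1.05 for Cnn2, 0.51 for Tpm1 and -0.46 for Cnn1. The ratios of mean FPKM were 14.5 for Acta2, 12.8 for Myl9, 12.4 for Acta1 and 6.18 for Tagln. Of all tested genes, 29.0% were called higher and 41.0% lower in this contrast, 70.0% in all. The choice leaned on Acta2, Tagln and Myl9, at ranks 10, 34 and 15 of the log2 differences, and nothing is read from these values. The other genes came with their families whatever their level, so the rule set no threshold with values just inside or outside it.

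THZ1 moved these genes little compared with the gap between the lines. In null cells Acta2, Tagln and Myl9 rose and Cnn2 fell, while Acta1, Cnn1 and Tpm1 did not pass the test. FPKM is relative to the mapped fragments of each library, so amounts of RNA per cell cannot be read from these rises and falls. The median FPKM of tested genes was 11.9 and 12.25 in null cells under THZ1 and 14.82 and 14.78 under DMSO. Acta2 was higher by a log2 difference of 0.27 (SE 0.056, adjusted p = 0.000745), a ratio of mean FPKM of 1.21. Myl9 was higher by 0.28 (SE 0.094, adjusted p = 0.0158) and Tagln by 0.20 (SE 0.057, adjusted p = 0.00678). Cnn2 fell by 0.18 on the log2 scale (SE 0.049, adjusted p = 0.00579). The log2 differences of the others were 0.10 for Acta1 (adjusted p = 0.247), 0.01 for Tpm1 (adjusted p = 0.782) and -0.18 for Cnn1 (adjusted p = 0.173).

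Thus 3 of 7 were called higher and 1 lower, against 24.6% higher and 51.1% lower of all tested genes, and 75.7% in either direction. The median over the 7 was 0.10 and over all tested genes -0.17. The all-gene median depends on the scaling between libraries and was 0.04 with median-of-ratios scaling, under which Cnn2 was not called at a log2 difference of 0.07 and Acta1 and Tpm1 were called higher, at 0.34 and 0.26. With upper-quartile scaling the fall of Cnn2 was also lost (-0.04, adjusted p = 0.588) and Acta1 was called higher (0.23, adjusted p = 0.0339). The rise of Acta2 was called under each of the 17 alternatives tried, with log2 differences of 0.18 to 0.51. The call for Tagln was lost without null THZ1 replicate 1 (adjusted p = 0.0672), and Cnn1, whose null THZ1 libraries were 2.51 and 1.65 FPKM, was then called lower (adjusted p = 0.00521). With library totals as the scaling the calls for Tagln (adjusted p = 0.0816) and Myl9 (0.0662) were lost. That for Myl9 was also lost without null THZ1 replicate 1 (adjusted p = 0.088) and without null DMSO replicate 1 (adjusted p = 0.109).

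In heterozygous cells none of the 7 genes was called by limma for THZ1 against DMSO, where 12.2% of all tested genes were higher and 10.3% lower, 22.4% in all. At an unadjusted p below 0.05 there was 1, Cnn2, with a log2 difference of -0.13 (SE 0.049, adjusted p = 0.0711). Without heterozygous DMSO replicate 1 it was called (adjusted p = 0.0442). The log2 differences were -0.06 for Acta2, -0.09 for Tagln, 0.05 for Myl9, 0.11 for Acta1, -0.01 for Cnn1 and -0.00 for Tpm1, with adjusted p-values of 0.293 to 0.961. The median over the 7 was -0.01 and over all tested genes 0.01.

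The THZ1 response itself differed between the lines for Acta2 and Tagln. The response in null cells minus that in heterozygous cells was 0.33 for Acta2 on the log2 scale (SE 0.079, adjusted p = 0.00299) and 0.28 for Tagln (SE 0.081, adjusted p = 0.00872). It was 0.24 for Myl9 (SE 0.133, adjusted p = 0.144), -0.01 for Acta1, 0.02 for Tpm1, -0.04 for Cnn2 and -0.17 for Cnn1, none of which passed. Leaving out a library brought in Myl9 without heterozygous THZ1 replicate 2 (adjusted p = 0.0148) or heterozygous DMSO replicate 1 (0.0453), and Cnn1 without null THZ1 replicate 1 (0.03). With median-of-ratios scaling Myl9, Tpm1 and Cnn2 were called higher as well. The difference was called higher for 15.1% and lower for 45.1% of all tested genes, 60.2% in all. The median of the 7 was 0.02, beside -0.19 over all tested genes. These responses use the same DMSO libraries as the contrast on which the genes were chosen.

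**Figure D2:**
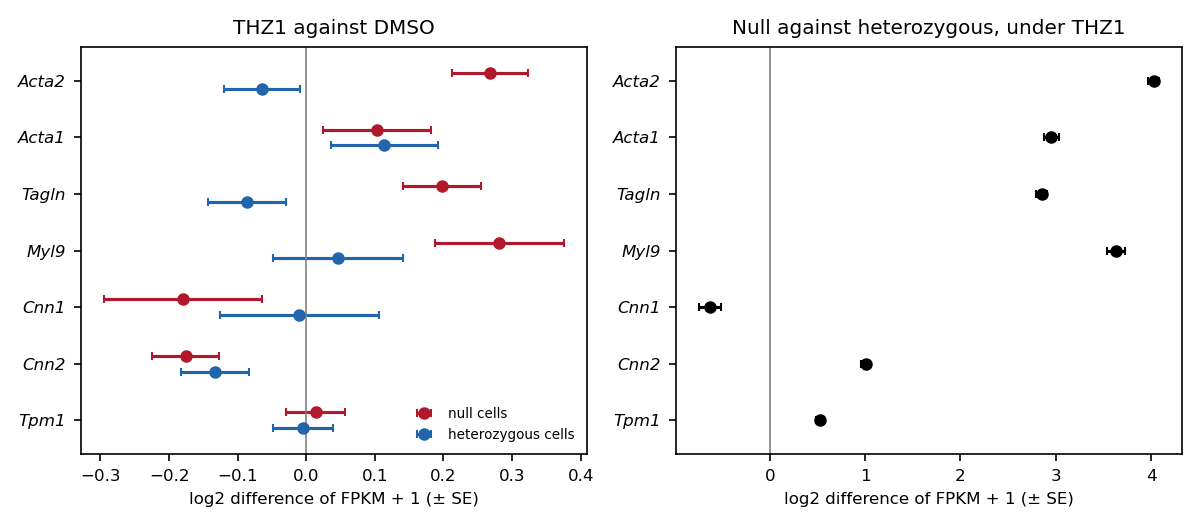
Log2 differences of FPKM + 1 with SE for the 7 tested genes: left, THZ1 against DMSO in null and in heterozygous cells, and right, null against heterozygous cells under THZ1. The axes differ in range. The responses to THZ1 lie between -0.18 and 0.28, and the differences between the lines under THZ1 between -0.63 and 4.03.

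Each muscle-type gene has close relatives that most cells use, and these relatives were compared in the same way. The cytoplasmic actins Actb and Actg1, which build the cytoskeleton of all cells, were higher in null than in heterozygous cells under THZ1 by 0.12 (SE 0.051, adjusted p = 0.0412) and 0.24 (SE 0.048, adjusted p = 0.000496). The call for Actb was lost without null THZ1 replicate 1, heterozygous THZ1 replicate 1 or heterozygous THZ1 replicate 2. Actb had 1768 and 1677 FPKM in null against 1549 and 1618 in heterozygous cells under THZ1. For THZ1 against DMSO in null cells the log2 difference was -0.36 for Actb (adjusted p = 2.61e-05) and -0.46 for Actg1 (adjusted p = 1.99e-06). With median-of-ratios scaling these were -0.12, not called, and -0.21, called. In heterozygous cells it was -0.42 for Actg1 (adjusted p = 0.000222), and Actb was not called. Of the summed FPKM of 6 actin genes, Acta2 made up 3.59% in both null libraries under THZ1 and 2.25 and 2.30% under DMSO. In the heterozygous libraries it made up 0.195 to 0.236%. The cardiac actin Actc1 was at or below 0.08 FPKM in all libraries. Muscle actins were thus a small part of actin RNA in both lines.

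Tagln2, the transgelin of non-muscle cells, was lower in null cells under THZ1, by a log2 difference of -0.32 (SE 0.054, adjusted p = 0.000106), a call that was lost with median-of-ratios scaling, where the difference was -0.01. Of the summed FPKM of 3 transgelin genes, Tagln was 30.4 and 29.8% in null cells under THZ1 and 26.3 and 28.2% under DMSO. It was 4.34 to 4.43% in heterozygous libraries. Of the non-muscle regulatory light chains, Myl12a was higher in null cells by 1.06 (SE 0.041, adjusted p = 9.90e-11) and Myl12b by 0.27 (SE 0.052, adjusted p = 0.000298). Myl9 was 4.86 to 5.39% of the 3 light chain genes in null and 0.511 to 0.652% in heterozygous libraries.

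The acidic calponin Cnn3 was higher in null cells under THZ1 by 0.64 (SE 0.042, adjusted p = 1.25e-08), between Cnn1 and Cnn2. Cnn2 was 54.9 and 55.2% of calponin FPKM in null cells under THZ1 and 59.7 and 60.5% under DMSO. In heterozygous cells it was 47.6 and 49.3% under THZ1 and 51.1 and 52.1% under DMSO. The tropomyosins Tpm3 and Tpm4, both common outside muscle, were higher by 0.20 (SE 0.040, adjusted p = 0.000443) and 0.63 (SE 0.041, adjusted p = 1.18e-08). Tpm1 made up 57.8 and 58.3% of the 4 tropomyosin genes in null cells under THZ1 and 60.4 and 60.7% under DMSO. It made up 56.6 to 57.7% in heterozygous libraries. The values of Tpm1 do not separate its alternative forms. With THZ1 in null cells Myl12a rose by 0.41 and Myl12b, Cnn3, Tpm3 and Tpm4 by 0.12 to 0.17, while Tagln2 was not called. With library totals as the scaling, only Myl12a and Tpm4 of these were called. The all-gene median of the differences between the lines under THZ1 was -0.28 as deposited and -0.01 with median-of-ratios scaling, under which Actb stood at 0.43 and Actg1 at 0.55.

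**Figure D3:**
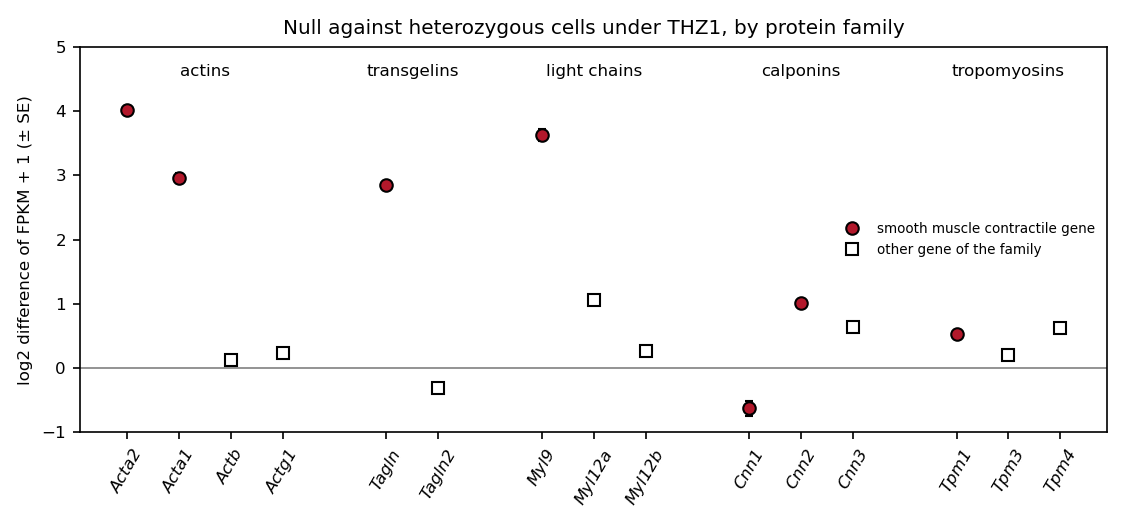
Log2 difference of FPKM + 1 with SE between null and heterozygous cells under THZ1, for tested genes of 5 protein families. Filled circles are smooth muscle contractile genes and open squares are their relatives. Acta2, Acta1, Tagln and Myl9 stand at 2.85 or more, and no relative shown exceeds 1.06.

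Near-identical genes can share reads. In the GENCODE vM21 transcripts, Acta2, Acta1, Actg2 and Actc1 held no stretch of 50 bases in common with each other. Acta1 held 28 such windows of 1397 in common with Actb, and Acta2 held 7 of 1986 in common with Actg1. No window of 100 bases was shared among the actins. How the authors treated such reads is not given in the sources used here.

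A wider list held 38 other genes of contraction and actin filaments, including the relatives of the muscle-type genes described above. Its counts are therefore not separate from the values of those relatives. Of these 38 genes, 32 were tested. Between null and heterozygous cells under THZ1, 25 were higher and 6 lower, with a median of 0.46, where 25.1% of all tested genes were higher and 58.1% lower. The 3 with the largest absolute differences were Pdlim5, an actinin-binding PDZ-LIM protein (1.38, adjusted p = 1.13e-11), Mylk, the kinase that phosphorylates the regulatory light chain (-1.17, adjusted p = 1.23e-09), and Myl12a. Mylk had 6.35 and 6.47 FPKM in null against 15.8 and 15.5 in heterozygous cells under THZ1. Non-muscle myosin heavy chain Myh9 was higher in null cells by 0.68 (SE 0.046, adjusted p = 1.75e-08), and the smooth muscle heavy chain Myh11 was at or below 0.05 FPKM in all libraries.

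With THZ1 in null cells 18 of the 32 rose and 8 fell, with a median of 0.13, where 24.6% of all tested genes rose and 51.1% fell. The largest were decreases of Zyx, a focal adhesion protein (-1.31, adjusted p = 6.04e-10), of the small GTPase Rhob (-1.07, adjusted p = 1.55e-09) and of Ppp1r14a, an inhibitor of myosin phosphatase (-0.95, adjusted p = 0.000337). In heterozygous cells 4 rose and 9 fell with THZ1, with a median of -0.04, where 12.2% of all tested genes rose and 10.3% fell. The response differed between the lines upwards for 15 and downwards for 7, with a median of 0.14, and upwards for 23 and downwards for 5 with median-of-ratios scaling. Of all tested genes, 15.1% differed upwards and 45.1% downwards. These shares, and the medians over all tested genes given above, are also the background of the lists that follow.

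The RNA of SRF, a known regulator of many such genes, was higher in null cells under THZ1, and its part in their levels was not tested. Srf had 23.5 FPKM in both null libraries against 17.6 and 18.9 in heterozygous cells under THZ1, a log2 difference of 0.35 (SE 0.054, adjusted p = 4.21e-05). Its coactivator Mrtfa had 16.7 and 17.9 FPKM in null against 16.0 and 16.3 in heterozygous cells under THZ1, a log2 difference of 0.09 (SE 0.071, adjusted p = 0.235), which was called at 0.39 with median-of-ratios scaling. Mrtfb was lower in null cells, with 7.0 and 7.7 against 12.3 and 13.0 FPKM and a log2 difference of -0.71 (SE 0.071, adjusted p = 7.36e-07). Myocd, the gene of myocardin, was listed at 0 in all 8 libraries.

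With THZ1 against DMSO in null cells, the log2 difference was 0.01 for Srf (adjusted p = 0.883, called higher at 0.25 with median-of-ratios scaling) and -0.15 for Mrtfa (adjusted p = 0.0712), and Mrtfb fell by 0.43 (adjusted p = 0.000115). Over the list of SRF, its cofactors and partners, 16 of 19 were tested. Between the lines under THZ1, 8 were higher and 6 lower, with a median of 0.15. Of all tested genes 83.2% were called in this comparison, and 14 of 16 called is near that share. The largest were Fhl1, a LIM-only protein (1.42, adjusted p = 9.87e-10), the TEAD factor Tead4 (0.72, adjusted p = 4.51e-06) and Klf4, a repressor of smooth muscle genes (0.72, adjusted p = 8.57e-06). With THZ1 6 rose and 7 fell in null cells, with a median of -0.07, where 75.7% of all tested genes were called. The list was led by falls of the ternary complex factor Elk3 (-1.23, adjusted p = 1.72e-09), Fhl3 (-1.12, adjusted p = 2.62e-08) and Tead3 (-1.04, adjusted p = 2.25e-08). In heterozygous cells 0 rose and 1 fell by limma, where 4 of the 16 had an unadjusted p below 0.05. The response differed upwards for 4 and downwards for 7, and for 8 and 5 with median-of-ratios scaling.

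Target genes of SRF or MRTF outside the 9 genes were followed as well, 20 of 23 being tested. Vcl, Flna, Zyx, Myh9, Pdlim7, Actb and Actg1 are also in the wider list of contraction and actin filament genes. Srf and Fhl2 are also in the list of SRF, its cofactors and partners. The counts below are therefore not separate from those above. Under THZ1, 13 were higher and 5 lower in null than in heterozygous cells, with a median of 0.21, where 25.1% of all tested genes were higher and 58.1% lower, 83.2% in all. The largest differences were those of the immediate early genes Fos (1.84, adjusted p = 5.96e-09) and Junb (1.75, adjusted p = 2.05e-09) and of thrombospondin Thbs1 (1.73, adjusted p = 2.61e-12). With THZ1 6 rose and 12 fell in null cells, with a median of -0.28, where 75.7% of all tested genes were called. In heterozygous cells 2 rose and 11 fell, with a median of -0.13, where 22.4% were called. Fos rose by 2.03 (adjusted p = 6.87e-09) and had 12.8 and 9.60 FPKM in null cells under THZ1 against 2.06 and 1.85 under DMSO. Filip1l fell by 1.70 (adjusted p = 5.62e-10) and Ankrd1, a nuclear ankyrin repeat protein, fell by 1.57 (adjusted p = 6.17e-11). With median-of-ratios scaling 8 rose and 7 fell in null cells.

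All 13 listed TGF-beta ligands, receptors, Smads and readout genes were tested. In null against heterozygous cells under THZ1, 9 were higher and 3 lower, with a median of 0.56, where 25.1% of all tested genes were higher and 58.1% lower, 83.2% in all. The inhibitory Smad7 was higher by 1.75 (adjusted p = 1.67e-10) and the Smad repressor Skil by 1.16 (adjusted p = 1.46e-09). Smad7 had 21.7 and 19.2 FPKM in null against 5.46 and 5.32 in heterozygous cells under THZ1. With THZ1 in null cells 6 rose and 4 fell, with a median of 0.12, and 10 rose and 3 fell with median-of-ratios scaling. The share called over all tested genes was 75.7%. Smad7 rose by 0.75 (adjusted p = 8.28e-07) and Ski by 0.71 (adjusted p = 1.31e-07), while the receptor Tgfbr2 fell by 0.70 (adjusted p = 1.38e-08). In heterozygous cells 1 rose and 3 fell, where 22.4% of all tested genes were called.

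The cells were checked against markers. Of 10 defining smooth muscle markers outside the 9 genes, 8 were under 1 FPKM in every library, with a highest value of 0.72. Desmin (Des), an intermediate filament protein of muscle, reached 0.16 FPKM at most. Smoothelin (Smtn), an actin-binding protein, was abundant and lower in null cells, with 140 and 152 FPKM against 251 and 267 in heterozygous cells under THZ1. Leiomodin (Lmod1) had 0.27 and 0.30 FPKM in null cells under THZ1 and 2.42 and 2.34 under DMSO, against 0.14 or less in heterozygous libraries. The summed level of the 10 was 141 to 152 FPKM in null cells under THZ1, 208 to 216 in null cells under DMSO, 252 to 267 in heterozygous cells under THZ1 and 275 to 291 under DMSO, nearly all of it Smtn.

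Of 12 fibroblast and myofibroblast markers, 8 were under 1 FPKM in every library, among them Col1a2 (0.11 FPKM at most), Col3a1 (0.10) and Pdgfra (0.14). The other 4, Col1a1, Postn, S100a4 and Fn1, were all higher in null than in heterozygous cells under THZ1, with a median log2 difference of 1.63. With THZ1 in null cells Col1a1, S100a4 and Fn1 rose, by 0.51, 0.50 and 0.30, and Postn was not called. In heterozygous cells Fn1 fell with THZ1 by 0.23 (adjusted p = 0.00676), where Acta2 was not called. Col1a1 had 23.9 and 23.8 FPKM in null against 3.10 and 3.55 in heterozygous cells under THZ1. The 12 summed to 1259 to 1275 FPKM in null cells under THZ1, 984 to 1063 in null cells under DMSO, 394 to 399 in heterozygous cells under THZ1 and 447 to 475 under DMSO. Fn1, which epithelial cells also make, gave most of these sums. Their part in the difference of the contractile genes was not tested.

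Kidney epithelial markers were present in both lines. Pax8, a transcription factor of the renal epithelium, had 47.7 and 50.8 FPKM in null against 83.2 and 84.4 in heterozygous cells under THZ1, and Cdh16, the kidney-specific cadherin, had 314 and 299 against 185 and 183. Epcam and Cdh1, widely used to define epithelium, were at or below 0.24 and 0.42 FPKM in all libraries. The 16 epithelial markers summed to 1187 to 1198 FPKM in null cells under THZ1, 1297 to 1316 in null cells under DMSO, 1460 to 1501 in heterozygous cells under THZ1 and 1408 to 1529 under DMSO. Of 7 proximal tubule markers 5 were under 1 FPKM throughout, as were 6 of 7 collecting duct and 3 of 5 immune markers. Under THZ1 the proximal tubule marker Lrp2 had 4.81 and 5.11 FPKM in null against 0.50 and 0.46 in heterozygous cells. Aqp1, of the same list, had 100 and 105 against 222 and 233, and the collecting duct marker Hsd11b2 3.09 and 2.27 against 10.8 and 10.9. The part of these differences in the result was not tested. The immune marker Cd68 had 4.82 and 3.94 FPKM in null against 3.09 and 2.70 in heterozygous cells under THZ1, and Csf1r 3.41 and 3.98 against 8.89 and 7.93. Of 8 pericyte and mesangial markers 6 were under 1 FPKM throughout, as were 8 of 11 striated muscle markers in the files and all 5 endothelial markers. The pericyte and mesangial marker Mcam had 36.95 and 36.15 FPKM in null against 31.12 and 31.91 in heterozygous cells under THZ1, and Gata3 1.54 and 1.91 against 3.21 and 3.25. Of the other striated muscle markers, the troponin genes Tnnc2, Tnni2 and Tnnt2, the first was higher in null than in heterozygous cells under THZ1, with 7.17 and 7.56 against 2.47 and 2.96 FPKM (log2 difference 1.17, adjusted p = 5.04e-07). Tnni2 was also higher, with 1.5 and 1.23 against 0.51 and 0.85 FPKM (log2 difference 0.50, adjusted p = 0.00288), and Tnnt2 was not called (-0.20, adjusted p = 0.187). With THZ1 in null cells Tnnc2 rose by 0.71 and Tnni2 fell by 1.35. The 11 striated muscle markers summed to 9.88 to 10.1 FPKM in null cells under THZ1, 10.04 to 11.6 in null cells under DMSO, 4.46 to 5.09 in heterozygous cells under THZ1 and 4.19 to 4.85 under DMSO, and their part in the result was not tested.

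**Figure D4:**
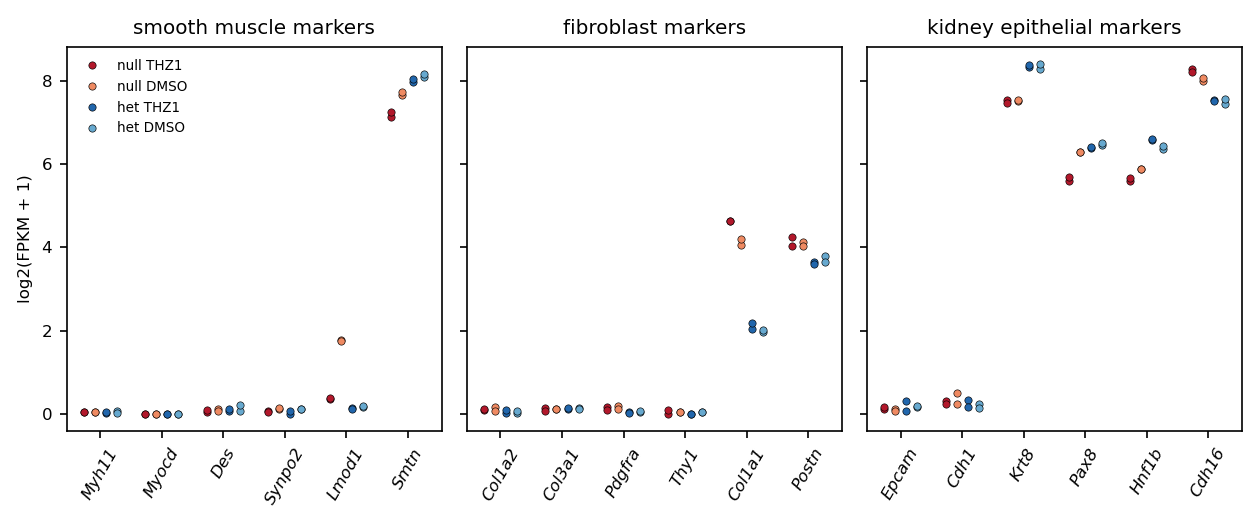
Log2(FPKM + 1) of chosen markers of smooth muscle, fibroblasts and kidney epithelium in each of the 8 libraries, with het for the heterozygous line. Most smooth muscle and fibroblast markers lie near 0, Smtn and Pax8 are lower in null cells, Col1a1 is higher there, and Epcam and Cdh1 lie near 0 in both lines.

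The genes with the pattern most like Acta2 were sought by the root mean square difference between the 4 group means, each gene centred on its own mean of log2(FPKM + 1), among 7686 genes with a mean of at least 3 on that scale. The closest were Lcn2 (0.08), an iron-carrier protein of injured tubules, Prnd (0.15), Myl9 (0.18), the cytochrome P450 gene Cyp4a12b (0.25) and the potassium channel Kcnk1 (0.29). Lcn2 averaged 739 FPKM in null cells under THZ1 and 606 under DMSO, against 38.9 in heterozygous cells under THZ1 and 41.9 under DMSO. Tagln came at rank 11, Cnn2 at 187 and Tpm1 at 702. Acta1, Cnn1, Actg2 and Tpm2 were under that minimum and were not ranked. This likeness includes the DMSO contrast on which Acta2 was chosen, and is a description over 4 groups. The order depends on the measure. By Pearson correlation over the 8 libraries Lcn2 ranked 4, Myl9 19, Kcnk1 33, Cyp4a12b 49 and Prnd 51. Tagln ranked 2 by that measure, Tpm1 42 and Cnn2 242.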

How the data were processed

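The authors deposited 1 file per library with FPKM values (fragments scaled by transcript length and mapped fragments), rounded to 2 decimals, for 18631 genes by Entrez ID. Bowtie2, DESeq2 and the mouse build mm10 are named, without versions, per the submitters' processing notes. Poly(A) RNA was taken from TRIzol extracts, per the labels' protocols. For the counting program, the annotation and the strand setting, the sources used here give nothing. Groups came from the labels. Symbols were found for 18592 IDs in RefSeq's table of GRCm38.p6.

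FPKM values are not counts, so limma-trend (limma 3.58.1, R 4.3.3) was run on log2(FPKM + 1), a scale that understates changes of low genes. Genes with a mean of at least 1 FPKM were kept (10731, including 7 of the 9 contractile genes). The filter used all 8 libraries, and none of the 7 passed through 1 group alone. The fit had 1 mean for each of 4 groups and 4 residual degrees of freedom. p-values are two-sided and Benjamini-Hochberg adjusted over all tested genes, with calls at an adjusted p below 0.05. The fit was tested on simulated data. Depth was estimated from the steps between low FPKM values. Alternatives were other scalings, filters and pseudocounts, a fit without the trend or on the compared groups alone, a replicate block, and leaving out each library. A planned comparison of proteins was not run, since no protein table was used here, and coding transcripts were compared instead.

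The genes and the lists were chosen with earlier results of these data known. All 9 genes are described in every comparison. From each list of related genes the 3 with the largest absolute log2 difference for THZ1 in null cells and the 3 for the lines under THZ1 are named, plus the cytoplasmic relatives, the SRF family and Myh9 and Myh11. A gene that this rule would name is not reported here. Other genes were named after their values were seen.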

Additional observations from a re-analysis of the deposited data

Results flagged for a closer look

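The THZ1 response differed between the lines for 2 of the 7 tested genes, by a test of the difference itself. For Acta2 the response in null cells exceeded that in heterozygous cells by 0.33 on the log2 scale (adjusted p = 0.00299 by limma), with log2 differences of 0.27 in null and -0.06 in heterozygous cells. For Tagln the excess was 0.28 (adjusted p = 0.00872), with 0.20 in null and -0.09 in heterozygous cells. In both genes both THZ1 libraries lay above both DMSO libraries in null cells, and the treatments overlapped in heterozygous cells. The difference in response was called for 60.2% of all tested genes, with 1620 upwards and 4843 downwards, but with 3539 upwards and 3062 downwards after median-of-ratios scaling.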

How the results depend on the processing

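Between the lines under THZ1 all 7 tested genes kept direction and call under the 17 alternatives, except that Cnn1 was not tested with a minimum of 5 FPKM. With no filter Actg2 was also called, giving 8. For THZ1 in null cells, 4 genes were called, and 2 with library totals as scaling, where Tagln (adjusted p = 0.0816) and Myl9 (0.0662) were lost. Myl9 was also lost with no filter (0.0905), and leaving out 1 library gave 3 to 4. In heterozygous cells 0 were called, 1 with library totals, and 0 to 1 leaving out 1 library. The difference in response was called for 2 genes, for 5 with median-of-ratios scaling, and for 2 to 3 leaving out 1 library. With that scaling Cnn2 changed sign, to 0.0715 for THZ1 in null cells and 0.20 for the difference in response. The median difference between the lines in DMSO was 2.57, with 2.77 at a minimum of 5 FPKM (6 genes), 2.72 with upper-quartile scaling and 2.53 to 2.61 leaving out 1 library. The cause was not tested except where fewer genes were tested.

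Over all genes, median-of-ratios scaling turned the split for THZ1 in null cells to 4489 higher and 3836 lower, against 2645 and 5479. For the difference in response the split became 3539 and 3062, against 1620 and 4843, and for the lines under THZ1 4328 and 4421, against 2689 and 6240. For THZ1 in heterozygous cells the 2406 calls became 1308 with upper-quartile scaling, 1309 with no filter, 797 without heterozygous THZ1 replicate 1, 1048 without heterozygous THZ1 replicate 2 and 1153 without heterozygous DMSO replicate 1. Higher against lower calls numbered 1306 and 1100 there, but 427 and 881 after upper-quartile scaling and 754 and 1492 after scaling to library totals. Upper-quartile scaling gave 3310 and 4276 for THZ1 in null cells, 2365 and 3223 for the difference in response, 4184 and 4160 for the lines under THZ1, and 4093 and 2714, against 3110 and 4398, for the lines in DMSO. Deviations of same-numbered libraries from their group means correlated at -0.09 to 0.14, with 1 pair of groups above 0.1, and the labels tie no number to a shared culture or day, so no pairing was assumed. With the replicate block 4, 0, 7 and 2 genes were called for THZ1 in null cells, THZ1 in heterozygous cells, the lines under THZ1 and the difference in response. Low fragment numbers limit Actg2 and Tpm2.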
